A study of Mus musculus with 4 samples.

Results

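The genes described here are the molecular chaperones of the cytosol, mitochondria and endoplasmic reticulum (ER) and the transcription factors that control them, 37 genes chosen by symbol from the 22865 in the count table. All 37 were present. They comprise 17 cytosolic genes, 13 genes of the ER, 3 mitochondrial chaperones and 4 transcription factors. The series profiled lung γδ T cells of female C57Bl/6 mice at 10 weeks of age, in 2 Aire-/- and 2 Aire+/+ libraries. Aire drives the display of tissue-restricted proteins by thymic epithelial cells. In both genotypes the sort, made after digestion of the tissue, kept viable CD45+ cells that carried a γδ receptor and lacked TCRβ, CD27 and the Vγ1, Vγ2, Vγ4 and Vγ5 chains, the cells the submitters call Tgd17. Duplicate sorts of 500 cells were amplified with Smart-Seq2, which copies whole transcripts from little RNA. Whether the duplicates are different mice is not stated, so p-values here reflect the spread between libraries, and that spread may be technical.

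Cells keep separate chaperone systems in separate compartments. In the cytosol, HSP70 and HSP90 proteins fold new and damaged proteins with the help of J-domain partners and other co-chaperones. Protein damage frees the heat shock factor HSF1 to raise the inducible members of this set. In the ER, the HSP70 protein BiP (Hspa5), the HSP90 protein GRP94 (Hsp90b1), lectin chaperones and disulfide isomerases fold secreted and membrane proteins. A load of unfolded protein there activates the sensors IRE1, PERK and ATF6, which act through the transcription factors XBP1, ATF4 and CHOP (Ddit3). Plasma cells are known for a large ER and high XBP1 activity.

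The libraries held 1106891 to 1265239 counts each. The ribosomal RNA precursor Rn45s took 20.4% and 19.4% of them in Aire-/- and 17.4% and 16.2% in Aire+/+ libraries, without overlap. The defining γδ T cell markers were present in all 4 libraries, their 10 genes summing to 6727 and 7514 CPM in Aire-/- and 4634 and 6502 CPM in Aire+/+ libraries. CPM here is the count per 1e6 counts after TMM scaling of the library sizes. B cell markers were present too, although the gate should remove B cells, and their 10 genes summed to 3742 and 2936 CPM in Aire-/- and 6406 and 4208 CPM in Aire+/+ libraries. All 10 were lower in Aire-/- libraries on average, and 0 passed the test. In such bulk samples, fewer cells of a type and less RNA per cell cannot be told apart. Of 9783 genes tested with edgeR's quasi-likelihood test, 2 had an adjusted p under 0.05, both lower in Aire-/-, which is 0.0204% of genes.

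The 37 genes together took 1.32% and 1.55% of the Aire-/- counts and 1.07% and 1.36% of the Aire+/+ counts. The constitutive cytosolic chaperones Hspa8 and Hsp90ab1 were the most abundant of them per length. Scaled by transcript length, Hspa8, the constitutive HSP70 (HSC70) that serves general folding and clathrin uncoating, stood highest at 1173 ± 250 CPM per kilobase (SD over the 4 libraries). The constitutive HSP90 Hsp90ab1 followed at 602 ± 89.2 CPM per kilobase. Within the cytosolic list the J-domain protein Dnaja1, a partner of Hspa8, came next at 203 ± 37.8. Among cytosolic genes, the lowest value of each of these 3 lay above the highest value of the next. Hspa8 alone made up 40.9% to 47.3% of the summed cytosolic CPM in every library.

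In the ER the leading genes were Hsp90b1 at 296 ± 85.7, Hspa5 at 277 ± 84.6 and Pdia3, the disulfide isomerase that works with the lectin chaperones, at 249 ± 62.4 CPM per kilobase. These 3 did not differ beyond their spread over the libraries, and their means lay between those of Hsp90ab1 and Dnaja1. The lectin chaperone Canx (130 ± 22.9), the isomerases Pdia4 (125 ± 37.1) and Pdia6 (111 ± 36.4) and the ER degradation component Herpud1 (108 ± 14.7) came next, again within their spread. The mitochondrial chaperonin Hspd1 stood at 97.0 ± 14.2, its partner Hspe1 at 85.0 ± 10.7 and the mitochondrial HSP70 Hspa9 at 70.8 ± 11.3 CPM per kilobase. Of the transcription factors, Atf4 led at 75.3 ± 19.8, Ddit3 stood at 31.9 ± 5.26, Xbp1 at 19.6 ± 8.66 and Hsf1 at 14.9 ± 5.38. The lowest gene of all was Bag3, a co-chaperone that links HSP70 to autophagy and is known to be heat-inducible, at 2.21 ± 1.67.

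**Figure D1:**
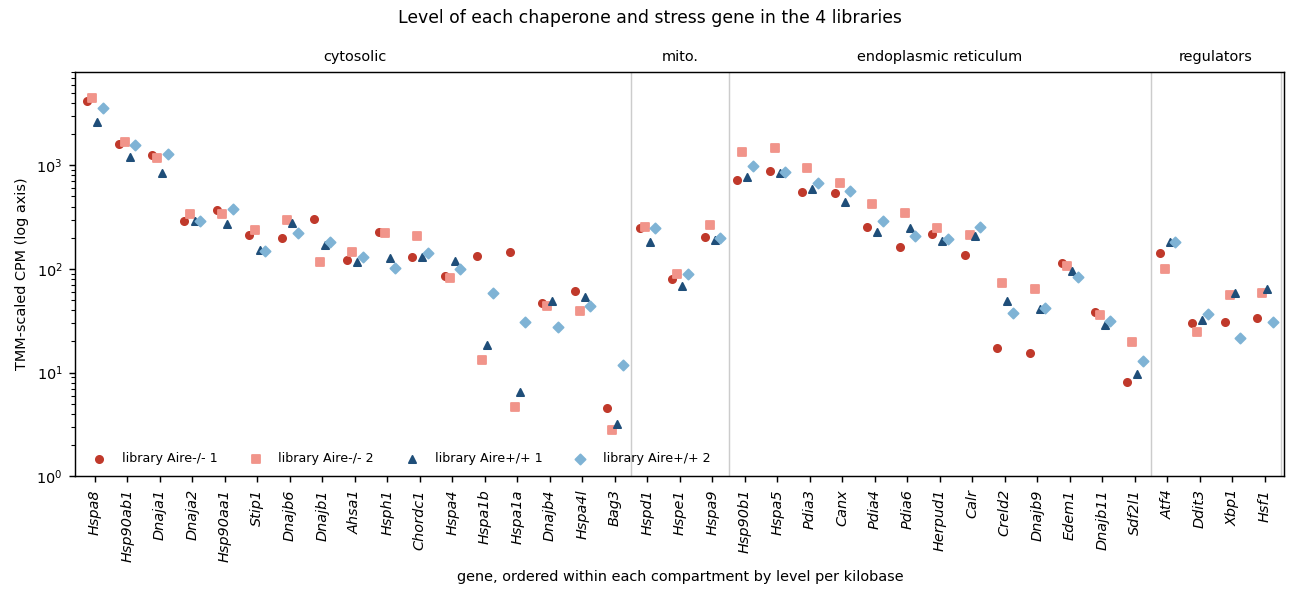
TMM-scaled CPM (log axis) of each of the 37 genes, 1 point per library, with genes ordered within a compartment by level per kilobase. Hspa8 stands at 2638 to 4443 CPM, Hspa1a and Hspa1b spread most widely of all, and most ER genes are highest in Aire-/- replicate 2.

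The comparison of genotypes asks how loss of Aire alters expression in these cells. None of the 36 chaperone and stress genes tested passed it, Bag3 being too low to test (5 and 3 counts in Aire-/-, 4 and 14 in Aire+/+). By edgeR 0 were called higher and 0 lower, against 0% and 0.0204% of all genes. With an unadjusted p under 0.05, 4 members stood higher (Hsph1, Hspa8, Stip1 and Hspa5) and 1 lower (Atf4), where 2.80% and 2.77% of all genes did. DESeq2's Wald test and limma-voom also called 0 of the members. Of the 36 tested, 29 had a log2 fold change above 0, against 50.9% of all genes tested, and their median was 0.23, against 0.01 for all genes. The 10 γδ T cell markers all lay above 0 too, with a median of 0.36, and 0 of them were called. The libraries of the genotypes did not overlap for 11 members that stood higher and 3 that stood lower in Aire-/-, where 17.1% and 17.3% of all genes did so. Some of these gaps were very narrow. The nearest Aire-/- and Aire+/+ libraries stood at 293.2 against 292.6 CPM for Dnaja2 and 250.3 against 249.8 CPM for Hspd1. Both genes overlapped with DESeq2 factors. With upper-quartile scaling the members without overlap numbered 6 higher and 4 lower, against 14.8% and 19.7% of all genes.

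**Figure D2:**
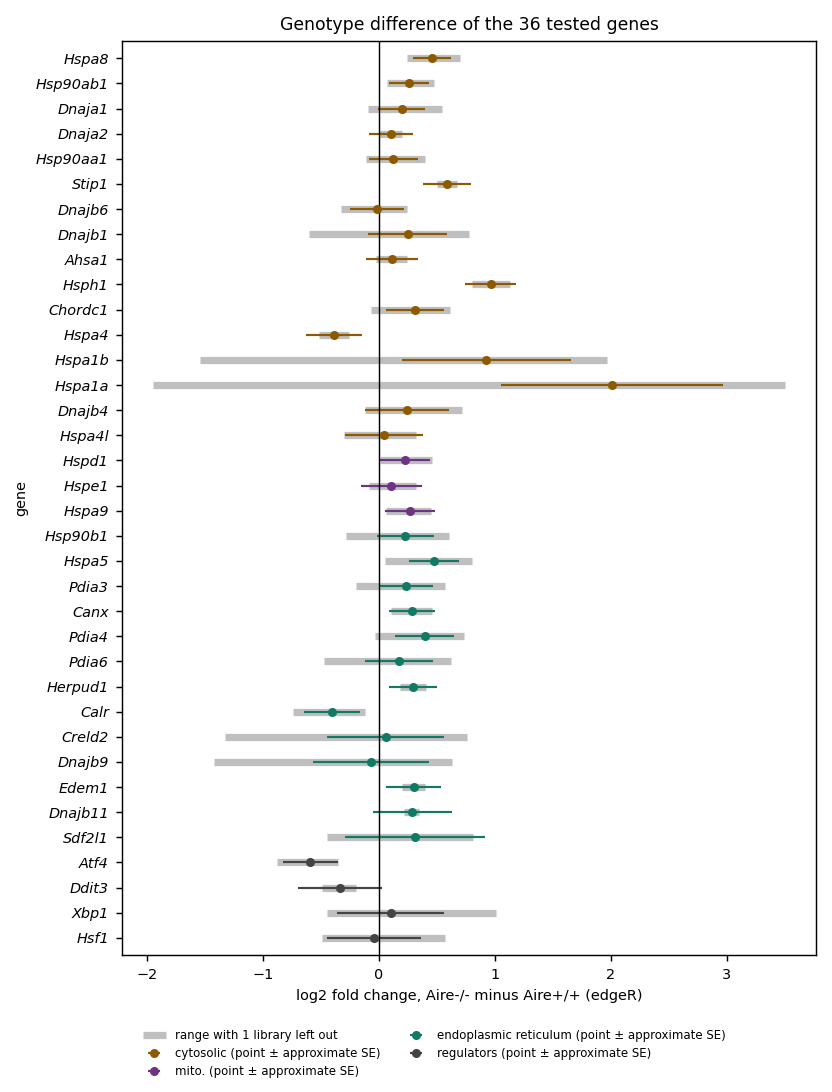
Log2 fold change of the 36 tested genes (edgeR, Aire-/- minus Aire+/+), points with bars of 1 approximate SE, and in grey the range of the estimate when each library is left out in turn. Hsph1 and Stip1 keep a narrow range above 0, whereas the range of Hspa1a runs from -1.94 to 3.50.

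Cytosolic chaperones had the smallest p-values. Hsph1, the HSP110 protein that exchanges the nucleotide of HSP70 and is a known HSF1 target, stood at 227 and 221 CPM in the Aire-/- libraries and at 128 and 102 CPM in the Aire+/+ libraries. The pairs did not overlap, at 224 ± 4.80 against 115 ± 18.3 CPM (SD, n = 2 each). Its log2 fold change was 0.96 (SE 0.22) with an adjusted p = 0.58 by edgeR, so it was not called, and without the filter on low counts it was (adjusted p = 0.040). Over the alternatives tried its adjusted p ran from 0.040 to 0.66. The estimate stayed between 0.81 and 1.13 with any library left out.

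Stip1, the adaptor (HOP) that hands clients from HSP70 to HSP90, stood at 214 and 239 CPM in Aire-/- and 152 and 149 CPM in Aire+/+ libraries. These pairs did not overlap either, at 0.59 on the log2 scale (SE 0.21, edgeR adjusted p = 0.89). Hspa8 stood at 4131 and 4443 CPM in Aire-/- and 2638 and 3602 CPM in Aire+/+ libraries. Its log2 fold change of 0.46 (SE 0.16, edgeR adjusted p = 0.89) was 0.24 without Aire+/+ replicate 1, and without Aire+/+ replicate 2 it was 0.70 and called (adjusted p = 0.036). Hsp90ab1 had the same low library, with 1617 and 1694 CPM in Aire-/- against 1189 and 1572 CPM in Aire+/+ (log2 fold change 0.26, adjusted p = 0.94, edgeR), which was 0.07 without Aire+/+ replicate 1.

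Dnaja1 was also lowest in Aire+/+ replicate 1, at 834 CPM against 1295 CPM in Aire+/+ replicate 2 and 1174 to 1270 CPM in Aire-/-. The inducible HSP90 Hsp90aa1 stood at 269 CPM in that library and 336 to 382 CPM in the other 3. The summed cytosolic CPM was 9359 and 9394 in Aire-/- and 6448 and 8346 in Aire+/+ libraries. The same library, Aire+/+ replicate 1, had the lowest γδ T cell sum (4634 CPM) and the highest B cell sum (6406 CPM). The part of the mixture of cells in the cytosolic difference was not tested.

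Not every cytosolic chaperone stood higher. Hspa4, another HSP110 protein, stood at 85.9 and 81.1 CPM in Aire-/- and 119 and 99.2 CPM in Aire+/+ libraries, without overlap (log2 fold change -0.39, SE 0.24, adjusted p = 0.94, edgeR). The J-domain proteins Dnajb4 (27.4 to 49.3 CPM) and Dnajb6 (201 to 296 CPM) overlapped between genotypes. So did the HSP90 activator Ahsa1 (116 to 145 CPM). Log2 fold changes were 0.24 for Dnajb4, -0.02 for Dnajb6 and 0.11 for Ahsa1. The J-domain protein Dnaja2 (293 to 336 CPM) did not overlap and stood narrowly higher in Aire-/-, at a log2 fold change of 0.10. Chordc1, an HSP90 co-chaperone, stood at 208 CPM in Aire-/- replicate 2 and 131 to 141 CPM in the other libraries. Hspa4l, the remaining HSP110 relative, ranged from 39.6 to 61.2 CPM.

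Other genes of the same system, from lists chosen with earlier results known, were not called either. In a list of 21 further genes, mostly cytosolic chaperones and HSP70 or HSP90 partners but also the factor Hsf2 and the ER-associated Hspa13 and Serpinh1, 17 were tested, 12 lay above 0 and 5 below, and 0 passed. The smallest p was that of Fkbp4, an immunophilin co-chaperone of HSP90 in steroid receptor complexes, at 192 and 240 CPM in Aire-/- and 138 and 119 CPM in Aire+/+ libraries (log2 fold change 0.74, SE 0.22, adjusted p = 0.82, edgeR). The HSP70 nucleotide exchange factor Hspbp1 stood the other way, at 42.9 and 41.5 against 60.6 and 67.6 CPM (-0.60, SE 0.30). Of the 8 subunits of the cytosolic chaperonin CCT, 7 lay above 0 with a median of 0.14 and 0 passed, Cct7 (0.25) and Cct3 (0.23) having the smallest p. The 3 mitochondrial chaperones lay at 0.11 to 0.27, also without a call.

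The inducible HSP70 genes were set by single libraries. Hspa1a and Hspa1b encode the stress-inducible HSP70 and are near-identical neighbours on chromosome 17, Hspa1a at 34969190 to 34972156 and Hspa1b at 34956436 to 34959238 (GRCm38). Their coding sequences are identical at 1915 of 1926 aligned bases (99.4%), so counts may be split between the copies in a way the sources used here do not state. Hspa1a also overlaps Gm20481 on the opposite strand. Hspa1a had 158 and 5 counts in Aire-/- against 8 and 36 in Aire+/+. Hspa1b had 146 and 14 against 23 and 69. In both genes Aire-/- replicate 1 was the highest library and Aire-/- replicate 2 the lowest, with the Aire+/+ libraries between them.

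The pair of copies summed to 278 and 17.9 CPM in Aire-/- and 25.1 and 89.8 CPM in Aire+/+ libraries. Between the Aire-/- libraries, replicate 1 exceeded replicate 2 by 30.6-fold for Hspa1a (exact 95% interval 12.8 to 95.6) and 10.1-fold for Hspa1b (5.83 to 18.9), intervals that cover counting error only. Between the Aire+/+ libraries, replicate 2 exceeded replicate 1 by 4.76-fold (2.18 to 11.9) and 3.18-fold (1.96 to 5.34). The fitted log2 fold change of Hspa1a was 2.01 (SE 0.95, adjusted p = 0.91, edgeR), and that of Hspa1b 0.93 (SE 0.73, adjusted p = 0.95). Without Aire-/- replicate 1 they turned to -1.94 and -1.54. Without Aire-/- replicate 2 both were called higher, at 2.96 and 1.78, and without Aire+/+ replicate 2 likewise, at 3.50 and 1.97. Without the filter on low counts Hspa1a was called at an adjusted p = 3.8e-04, and its adjusted p ran up to 1.0 over the alternatives.

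Dnajb1 (HSP40), the J-domain partner induced together with HSP70, had the same high library. It stood at 305 CPM in Aire-/- replicate 1, 116 CPM in Aire-/- replicate 2, and 171 and 184 CPM in the Aire+/+ libraries, a 2.63-fold difference within the Aire-/- pair (exact 95% interval 2.13 to 3.26, counting error only). Its log2 fold change of 0.25 turned to -0.61 without Aire-/- replicate 1. The known HSF1 targets Hsph1, Hsp90aa1 and Dnaja1 did not share this, differing by 1.03-fold, 1.11-fold and 1.08-fold between the same libraries. Hspa4l was 1.55-fold higher in Aire-/- replicate 1 (exact 95% interval 1.04 to 2.33, counting error only). Chordc1 was 1.60-fold higher in Aire-/- replicate 2 (1.29 to 1.98). Bag3 had 5 counts in Aire-/- replicate 1 and was highest in Aire+/+ replicate 2. Hsf1 itself, the factor, stood at 33.8 and 58.5 CPM in Aire-/- and 63.8 and 30.8 CPM in Aire+/+ libraries, the pairs overlapping fully and the lowest values lying in Aire-/- replicate 1 and Aire+/+ replicate 2, where Hspa1a and Hspa1b were the higher of their pairs.

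The promoters of the inducible pair are shown because they carry the letters that HSF1 is known to bind. The heat shock element was searched on both strands as 2 inverted units, GAANNTTC, and as 3 units, in which 2 free bases and a further GAA follow, every match of the longer form holding the shorter. Promoters are RefSeq sequences of GRCm38.p6 from 250 bases before to 50 after the start site, and 32 of the 37 genes matched, all but Hspa8, Hsp90aa1, Hsp90ab1, Hsf1 and Hspa9. Capitals mark the matched letters, and Hsph1 is set beside the pair as the gene with the smallest p.
Hspa1a, chr17:34972107-34972406, minus strand: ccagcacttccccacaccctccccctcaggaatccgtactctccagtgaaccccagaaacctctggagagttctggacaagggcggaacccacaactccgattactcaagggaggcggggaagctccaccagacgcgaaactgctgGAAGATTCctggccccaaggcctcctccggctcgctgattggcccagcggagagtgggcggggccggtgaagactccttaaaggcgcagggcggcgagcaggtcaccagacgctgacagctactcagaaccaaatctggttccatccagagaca
Hspa1b, chr17:34959189-34959488, minus strand: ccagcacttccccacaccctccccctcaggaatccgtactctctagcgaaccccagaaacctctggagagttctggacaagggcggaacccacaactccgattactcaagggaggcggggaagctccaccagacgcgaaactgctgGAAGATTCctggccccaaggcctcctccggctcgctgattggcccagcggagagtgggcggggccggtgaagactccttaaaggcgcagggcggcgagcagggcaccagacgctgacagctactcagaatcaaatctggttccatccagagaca
Hsph1, chr5:149636287-149636586, minus strand: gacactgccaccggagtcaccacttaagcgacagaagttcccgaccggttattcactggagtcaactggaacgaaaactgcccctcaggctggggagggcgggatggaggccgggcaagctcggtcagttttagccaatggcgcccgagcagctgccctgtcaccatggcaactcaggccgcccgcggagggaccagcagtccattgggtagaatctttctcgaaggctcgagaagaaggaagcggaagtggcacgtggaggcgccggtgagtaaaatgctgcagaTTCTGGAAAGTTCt
The windows of Hspa1a and Hspa1b are identical at 296 of 300 bases, and each holds a 2-unit match whose first base lies 104 bases before the start site.

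Hsph1 holds a 3-unit match that begins 36 bases past the start site. The 2-unit form was found in 7 of 14 matched cytosolic genes (Hspa1a, Hspa1b, Hsph1, Dnaja1, Dnajb6, Bag3 and Chordc1), in both matched mitochondrial genes, Hspd1 and Hspe1, which share 1 region between them, and in 0 of 13 ER genes. Counted by gene, as for the members, 9.04% of the 27025 genes with a promoter in the table hold it in any of their promoters, and counted by promoter 7.86% of 32851 do. The 3-unit form was found in Hsph1, Dnajb6, Chordc1, Hspd1 and Hspe1, against 0.662% of all genes and 0.603% of all promoters. A match describes letters and shows no binding.

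ER chaperones stood apart in 1 library. The summed CPM of the 13 ER genes was 3667 and 5970 in Aire-/- against 3736 and 4232 in Aire+/+. Aire-/- replicate 2 was the high one, and the other 3 libraries lay close together. The ratio of summed ER to summed cytosolic CPM was 0.392 and 0.636 in Aire-/- and 0.579 and 0.507 in Aire+/+ libraries. Thus the Aire-/- libraries held both the lowest and the highest ratio, and the genotype means, 0.514 ± 0.172 and 0.543 ± 0.0511 (SD, n = 2 each), differed by less than the spread between libraries. Without Hspa5 and Hsp90b1 the ER sum showed the same order, at 2056 and 3154 against 2124 and 2386 CPM.

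**Figure D3:**
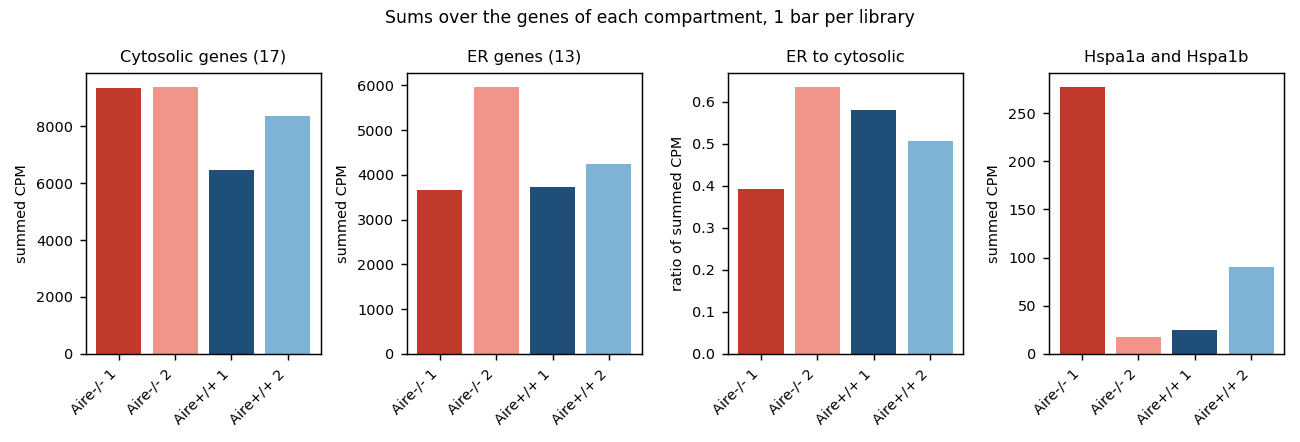
Summed TMM-scaled CPM of the 17 cytosolic and 13 ER genes, their ratio, and the sum of Hspa1a and Hspa1b, 1 bar per library. Aire-/- replicate 2 has the highest ER sum (5970 CPM) and the lowest Hspa1a and Hspa1b sum (17.9 CPM), and Aire-/- replicate 1 the lowest ratio (0.392).

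Hspa5 (BiP), the master chaperone of the ER lumen, stood at 887 and 1483 CPM in Aire-/- against 837 and 866 CPM in Aire+/+. The pairs did not overlap, yet the distance rested on 1 library: the log2 fold change of 0.48 (SE 0.22, edgeR adjusted p = 0.89) was 0.06 without Aire-/- replicate 2 and 0.81 without Aire-/- replicate 1. Hsp90b1 (GRP94), which folds integrins and Toll-like receptors, stood at 724 and 1332 CPM in Aire-/- and 775 and 980 CPM in Aire+/+ libraries. Here the Aire+/+ values lay between the Aire-/- values, and the log2 fold change of 0.23 (adjusted p = 0.97, edgeR) turned to -0.28 without Aire-/- replicate 2.

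The disulfide isomerases were also highest in Aire-/- replicate 2. Pdia3 stood at 555 and 937 CPM in Aire-/- and 589 and 679 CPM in Aire+/+ libraries, Pdia4 at 252 and 427 against 228 and 288 CPM, and Pdia6 at 163 and 349 against 246 and 207 CPM. The Aire+/+ values lay between the Aire-/- values for Pdia3 and Pdia6 and not for Pdia4. Pdia6 differed by 2.13-fold between the Aire-/- libraries (exact 95% interval 1.78 to 2.57, counting error only), and its log2 fold change ran from -0.48 to 0.63 as single libraries were left out.

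The widest ratios belonged to small targets of the unfolded protein response. Dnajb9 (ERdj4), a J-domain partner of BiP and a known target of IRE1 and XBP1, had 17 and 68 counts in Aire-/- against 51 and 49 in Aire+/+, a 4.13-fold difference within the Aire-/- pair (2.40 to 7.50). Creld2, an ER stress-inducible protein of the ER lumen, had 19 and 78 against 61 and 44 counts, a 4.24-fold difference (2.54 to 7.41). Sdf2l1, a component of the BiP complex, had 9 and 21 counts against 12 and 15, a 2.41-fold difference whose interval came close to 1 (1.06 to 5.97). In these 3 genes Aire-/- replicate 1 was the lowest and Aire-/- replicate 2 the highest library. Their fitted genotype differences were -0.07 for Dnajb9, 0.06 for Creld2 and 0.31 for Sdf2l1, with approximate SEs of 0.50 to 0.60.

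Other ER genes had another order or differed less. The lectin chaperone Calr, the soluble partner of Canx, stood at 138 and 211 CPM in Aire-/- and 208 and 253 CPM in Aire+/+ libraries, highest in Aire+/+ replicate 2, and its log2 fold change was -0.40 (SE 0.24, edgeR adjusted p = 0.93), from -0.74 without Aire-/- replicate 2 to -0.12 without Aire-/- replicate 1. Canx, the membrane lectin, stood at 539 and 680 against 441 and 559 CPM. Dnajb11 (ERdj3), a BiP partner, stood at 38.4 and 35.8 against 29.1 and 31.7 CPM. The ER degradation genes Herpud1 (216 and 250 against 187 and 193 CPM) and Edem1, which marks misfolded glycoproteins (113 and 107 against 95.4 and 83.0 CPM), also varied little within a genotype. Dnajb11, Herpud1 and Edem1 were the ER genes other than Hspa5 whose genotypes did not overlap, all by small distances.

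Counted over genes, 9 of the 13 ER genes were over 1.5-fold higher in Aire-/- replicate 2 than in Aire-/- replicate 1, and 0 were over 1.5-fold lower. Over all genes tested, 15.8% were over 1.5-fold higher and 17% over 1.5-fold lower in that comparison of single libraries, which carries no replicate check. Of the 16 tested cytosolic genes 1 (Chordc1) was over 1.5-fold higher and 4 (Hspa1a, Hspa1b, Dnajb1 and Hspa4l) over 1.5-fold lower. The median ratio of replicate 2 to replicate 1 was 1.69 for the ER genes, 0.961 for the cytosolic genes and 0.996 for all genes. Between the Aire+/+ libraries 0 of the 13 ER genes differed by over 1.5-fold in either direction, where 14.8% of all genes were higher and 15% lower in replicate 2. The members share their libraries and are not replicates of one another.

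**Figure D4:**
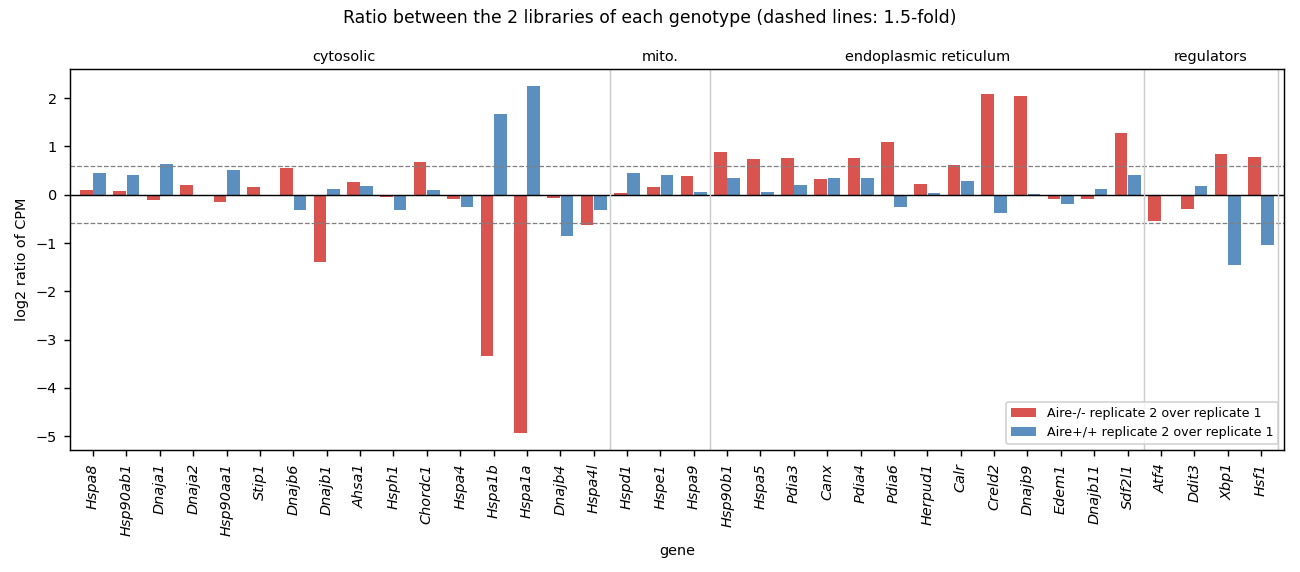
Log2 ratio of replicate 2 to replicate 1 for the 36 tested genes within Aire-/- (red) and within Aire+/+ (blue), with dashed lines at 1.5-fold. In the Aire-/- pair Hspa1a, Hspa1b and Dnajb1 reach far below 0 while 9 of 13 ER genes lie above the upper line.

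Markers of other cell types were read beside these values. Igj, the joining chain of antibody-secreting cells, had 0 and 4 counts in Aire-/- against 1674 and 827 in Aire+/+. The 8 other plasma cell markers summed to 522 and 630 CPM in Aire-/- and 602 and 729 CPM in Aire+/+ libraries, of which Tnfrsf17 and Fkbp11 had 0 to 5 counts per library. A large part of this sum was Sdc1, at 206 and 304 CPM in Aire-/- and 159 and 259 CPM in Aire+/+ libraries. Of the 9 markers with Igj, 6 were tested. Of these, 5 lay below 0 and 1, Sdc1, above, and 4 were lower without overlap, against 17.3% of all genes. The B cell sum was lower in Aire-/- replicate 2 (2936 CPM) than in replicate 1 (3742 CPM). The γδ T cell sum was 7514 against 6727 CPM. Myeloid markers summed to 385 and 437 CPM in Aire-/- and 890 and 461 CPM in Aire+/+ libraries. The 6 tested all lay below 0, and Cd14 had 0 counts in both Aire-/- libraries. Single markers had other orders: Lyz2 had 1 and 61 counts in Aire-/- against 186 and 2 in Aire+/+. Emr1, not tested, had 15 and 3 counts in Aire-/- against 2 and 6 in Aire+/+. The 13 early response genes summed to 2992 and 5130 CPM in Aire-/- and 3821 and 2644 CPM in Aire+/+ libraries, highest in Aire-/- replicate 2, mostly by Junb (728 and 2624 CPM against 1429 and 506 CPM). Their part in the ER result was not tested.

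The promoters of ER genes are shown for the element that ATF6 and NF-Y are known to bind, the ER stress response element, searched as CCAAT and CCACG with 9 free bases between them. Capitals mark each match, found on either strand, in the leading chaperones Hspa5 and Hsp90b1 and in Pdia6 and Creld2, which were among the genes with wide ratios.
Hspa5, chr2:34771840-34772139, plus strand: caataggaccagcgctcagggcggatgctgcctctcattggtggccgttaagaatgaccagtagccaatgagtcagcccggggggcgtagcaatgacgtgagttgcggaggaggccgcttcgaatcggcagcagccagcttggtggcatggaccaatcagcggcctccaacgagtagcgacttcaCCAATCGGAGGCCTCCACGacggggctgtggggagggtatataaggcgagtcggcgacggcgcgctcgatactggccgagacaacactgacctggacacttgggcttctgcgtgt
Hsp90b1, chr10:86705395-86705694, minus strand: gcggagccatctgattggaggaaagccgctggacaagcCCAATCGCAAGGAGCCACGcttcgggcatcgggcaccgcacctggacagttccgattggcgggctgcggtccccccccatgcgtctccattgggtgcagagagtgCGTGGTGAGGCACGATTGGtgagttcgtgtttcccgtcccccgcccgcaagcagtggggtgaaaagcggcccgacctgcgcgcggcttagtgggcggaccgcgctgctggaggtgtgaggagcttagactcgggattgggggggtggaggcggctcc
Pdia6, chr12:17266339-17266638, plus strand: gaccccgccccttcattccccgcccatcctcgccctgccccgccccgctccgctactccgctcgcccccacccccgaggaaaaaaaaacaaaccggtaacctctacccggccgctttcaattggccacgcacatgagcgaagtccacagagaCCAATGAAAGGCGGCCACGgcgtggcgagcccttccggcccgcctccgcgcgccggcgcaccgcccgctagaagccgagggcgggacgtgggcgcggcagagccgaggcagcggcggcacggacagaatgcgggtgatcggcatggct
Creld2, chr15:88819396-88819695, plus strand: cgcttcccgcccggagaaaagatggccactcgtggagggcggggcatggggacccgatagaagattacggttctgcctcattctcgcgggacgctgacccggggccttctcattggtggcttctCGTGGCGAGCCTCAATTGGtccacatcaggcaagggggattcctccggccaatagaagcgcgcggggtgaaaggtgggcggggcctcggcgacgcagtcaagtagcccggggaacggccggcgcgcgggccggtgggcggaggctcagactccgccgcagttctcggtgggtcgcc
The element was found in 6 of 13 ER genes, Hspa5, Hsp90b1, Calr, Canx, Creld2 and Pdia6, and in 0 of the 14 cytosolic genes, against 0.137% of all genes and 39 of 32851 promoters (0.119%).

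Hsp90b1 holds it at both 212 and 107 bases before the start site, Creld2 at 126, Pdia6 at 98 and Hspa5 at 65. A shorter second form, ATTGG and CCACG with 1 free base between them, was found in Herpud1 and Dnajb11 and in 0.0444% of all genes and 0.0365% of all promoters. Of the 6 carriers of the first element, 5 were over 1.5-fold higher in Aire-/- replicate 2 than in replicate 1 and Canx, at 1.26-fold, was not. Of the 7 ER genes without it, Dnajb9, Sdf2l1, Pdia3 and Pdia4 were over 1.5-fold higher and Dnajb11, Herpud1 and Edem1 were not.

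**Figure D5:**
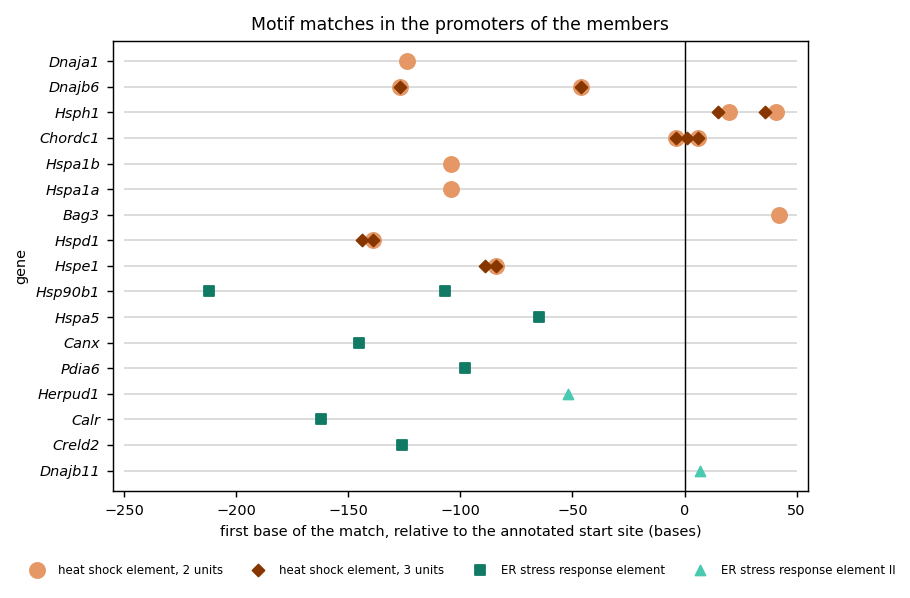
Position of the first base of each motif match relative to the annotated start site (bases), for the members with a match. Heat shock elements lie in cytosolic and mitochondrial genes and ER stress response elements in ER genes, none of the 4 forms being found across that line.

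The transcription factors of the unfolded protein response did not move together. Atf4, the effector of PERK and of amino acid shortage, stood at 143 and 99.0 CPM in Aire-/- and at 183 CPM in both Aire+/+ libraries. The pairs did not overlap, and the fitted difference was -0.59 (log2, SE 0.24, edgeR adjusted p = 0.89), from -0.88 to -0.35 with single libraries left out. Ddit3 (CHOP), the stress factor downstream of ATF4, stood at 30.1 and 24.5 against 32.3 and 36.8 CPM (-0.34, SE 0.36). Xbp1, which IRE1 activates by splicing, a step that gene counts do not show, stood at 31.1 and 55.6 CPM in Aire-/- and 59.0 and 21.4 CPM in Aire+/+ libraries. Its 2.76-fold gap within Aire+/+ (exact 95% interval 1.73 to 4.53, counting error only) exceeded the genotype difference of 1.07-fold (log2 fold change 0.10, SE 0.46). Beside these Xbp1 levels the ER sums were 3667 and 5970 CPM in Aire-/- and 3736 and 4232 CPM in Aire+/+.

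The sensors and further targets were given by list. Of 11 sensors and regulators of the response 6 lay above 0 and 5 below, with a median of 0.03 and 0 calls. Ern1 (IRE1) stood at 37.4 and 103 CPM in Aire-/- and 53.3 and 38.5 CPM in Aire+/+ libraries, highest in the library with the highest ER sum (log2 fold change 0.61, adjusted p = 0.94, edgeR). Eif2ak3 (PERK) stood at 34.7 and 33.0 against 58.2 and 39.4 CPM (-0.53). Of 14 targets of ATF4 and CHOP, 10 were tested, 6 lay above 0, 4 below, and 0 passed. Atf3 (0.62) and the mitochondrial folate enzyme Mthfd2 (0.54) had the smallest p, both opposite in sign to Atf4 itself. The 4 targets below 0 shared the sign of Atf4.

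Among 20 further ER folding and translocation genes, 19 were tested, 13 lay above 0 and 0 passed. Txndc5, a disulfide isomerase abundant in plasma cells, had the smallest p, at 57.5 and 42.4 CPM in Aire-/- and 120 and 81.3 CPM in Aire+/+ libraries (-1.01, SE 0.30, adjusted p = 0.82, edgeR), while the oxidase Ero1l stood at 0.53. Txndc5 and Igj were both lower without overlap in Aire-/-, as were 17.3% of all genes, and a link between them was not tested. Over 1.5-fold higher in Aire-/- replicate 2 than in replicate 1 were 5 of the 19, against 15.8% of all genes, among them the BiP exchange factor Hyou1 at 28.3 and 85.8 CPM, named after its values were seen. Of 13 further ER degradation genes 12 were tested, 6 lay on each side of 0 and 0 passed, Derl1 (0.75) and Selk (-0.39) having the smallest p.

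Members set by a single library are those whose pair of a genotype lay over 2-fold apart, with 10 or more counts in the higher library. There were 9 of 36 tested, a share near the 20.9% of all genes. In Aire-/- these were Hspa1a, Hspa1b, Dnajb1, Dnajb9, Sdf2l1, Creld2 and Pdia6, 7 members against 13.1% of genes. In Aire+/+ they were Hspa1a, Hspa1b, Hsf1 and Xbp1, 4 members against 11.2% of genes. Of the 37 genes 18 overlap another annotated gene, such as Pdia3 with Catsper2, Pdia6 with Atp6v1c2, and Hspd1 with Hspe1. These neighbours lie on the opposite strand, and their reads may be mixed where strand was not used. Others, such as Hspa8 with snoRNA genes, overlap on the same strand, where strand would not separate reads.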

How the data were processed

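Values are gene counts, whole numbers in 1 column per library, as deposited by the authors. The submitters' processing notes name TopHat2 2.0.10, Cufflinks 2.2.1 and mm10 but give them no role. The counter, annotation and handling of strand and duplicates were not given in the sources used here. The Smart-Seq2 method carries no molecular identifiers, so intervals cover counting error only.

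Genotype came from the titles. The test was edgeR 4.0.16 under R 4.3.3 (TMM, filterByExpr with a minimum count of 10 and total of 15, quasi-likelihood F test on genotype, Benjamini-Hochberg over all 9783 genes tested), and called at an adjusted p under 0.05. The SE is the absolute log2 fold change over the square root of F, an approximation. Levels per kilobase use the longest GENCODE M21 transcript. Alternatives used DESeq2 1.42.0, limma 3.58.1, other filters and scalings, the replicate number as a block, and each library left out. Upper-quartile scaling, and rescaled counts of members without overlap or far apart within a pair, were chosen after seeing the data. The main edgeR fit ran first on 5 simulated sets with 200 changed genes each, and the alternatives did not. Libraries of 1 genotype were not copies, their chi-square over degrees of freedom being 4.44 and 4.37, against 4.08 to 6.26 between genotypes.

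The members and lists were chosen with earlier results of these data known. Named with full statistics are the 4 members with the smallest p in each direction, the 3 most abundant per length in the cytosol and the ER, members set by 1 library (over 2-fold within a genotype with 10 or more counts in the higher, or a log2 fold change of 0.5 or more that turns sign without 1 library), and up to 2 genes per further list; other members are given by their levels.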

Additional observations from a re-analysis of the deposited data

How the results depend on the processing

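With 2 libraries a genotype at this depth, low genes such as Bag3 were not testable. Genes called higher and lower over the whole table, 0 and 2, became 21 and 26 without the filter on low counts, and genes called lower became 1 with limma-voom. With 1 library left out, where the lone library is assumed to vary like the other pair, they ran from 5 to 21 and from 6 to 42, both highest without Aire+/+ replicate 2. Members called higher, 0, became 2 without the filter (Hspa1a and Hsph1) and ran from 0 to 3 with 1 library left out: Hspa1a and Hspa1b without Aire-/- replicate 2, and these with Hspa8 without Aire+/+ replicate 2. Members called lower stayed at 0 in every alternative run. The median log2 fold change of cytosolic genes, 0.25, ran from 0.18 to 0.38 with 1 library left out, highest without Aire+/+ replicate 2, and that of ER genes, 0.29, from -0.19, without Aire-/- replicate 2, to 0.61, without Aire-/- replicate 1. The log2 ratio of summed CPM ran from 0.17 to 0.54 for cytosolic genes and from -0.12 to 0.58 for ER genes, and the difference in the ER to cytosolic ratio from -0.15 to 0.09. Members higher without overlap, 11, numbered 9 with DESeq2 factors (17.2% of all genes) and 6 with upper-quartile scaling (14.8% of all genes), which moved the median of all genes by -0.04. Of 33 named genes, 18 kept their sign in every alternative run. The signs of the others turned with 1 library left out, over ranges of -1.94 to 3.50 for Hspa1a, -1.54 to 1.97 for Hspa1b, -0.093 to 0.55 for Dnaja1, -0.61 to 0.78 for Dnajb1, -0.49 to 0.57 for Hsf1, -0.28 to 0.61 for Hsp90b1, -1.42 to 0.63 for Dnajb9, -0.45 to 0.82 for Sdf2l1, -1.32 to 0.76 for Creld2, -0.19 to 0.57 for Pdia3, -0.48 to 0.63 for Pdia6, -0.45 to 1.01 for Xbp1, -0.059 to 0.48 for Cct3, -0.30 to 1.16 for Ern1 and -0.027 to 1.37 for Derl1. Creld2 also turned with limma-voom, to -0.28. The cause was not tested.

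The titles do not say whether libraries of the same replicate number belong together. Deviations from the genotype means correlated at -0.077 between libraries of the same number. With 2 libraries a genotype this value cannot decide whether they were handled as pairs. With the replicate number as a block, genes called higher numbered 2 and lower 4, members called stayed at 0, and Creld2 turned to -0.16.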
